A study of Mus musculus with 8 samples.

Results

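The autophagy and lysosome genes studied here are 42 genes chosen by name, of the 22549 genes in an RNA-seq table of mouse iNKT cells. These invariant natural killer T cells recognise lipids presented by CD1d through a nearly uniform receptor. They comprise 5 ATG8 proteins, 5 enzymes and subunits of their conjugation, 4 initiation and nucleation factors, 5 cargo receptors, 2 transcription factors, 8 cathepsins, 5 other proteins of the lysosome's lumen and 8 proteins of its membrane. All 42 had a row in the table, 40 by symbol and 2 (Tfeb and Tfe3) by an older symbol. All 8 libraries carry the same genotype label, CCR10+/EGFP, so every value below comes from that background and there is no other genotype to set it against. Cells came from skin (4 libraries) or spleen (4 libraries), so tissue is the only contrast. The labels give no age, sort gate, treatment or number of animals, and nothing in them states that numbered replicates come from different animals. What the p-values measure is then the spread among the libraries sequenced, and that spread could be technical.

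Autophagy encloses cytoplasm or damaged organelles in a double membrane that fuses with the lysosome. The ULK1 kinase complex and the Beclin 1 lipid kinase complex start the membrane. The ATG12-ATG5-ATG16L1 complex, with ATG7 and ATG3, attaches ATG8 proteins (the LC3 and GABARAP families) to it. Receptors such as p62 tie cargo to ATG8, and cathepsins and other hydrolases digest what arrives. TFEB and TFE3 are known to drive lysosomal genes through a CACGTG-containing element called CLEAR. Loss of Atg5 or Atg7 in developing T cells is known to deplete iNKT cells.

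Totals ranged from 7191131 to 9791973 expected counts per library. A count was found for 5302 to 6012 genes in skin libraries and for 6415 to 10094 in spleen libraries. Of the 42 members, 28 to 34 had a count in a skin library and 26 to 34 in a spleen library. All 8 T cell markers were detected in both tissues, 7 of them in every library, and Cd247 was at 0 in 3 libraries. Their sum was lower in skin without overlap, at 3096 to 4039 CPM (counts scaled to library size) against 4442 to 6333 CPM in spleen, and Cd3d was called lower in skin (edgeR adjusted p = 0.025). The 14 keratinocyte markers summed to 892, 334, 1032 and 273 CPM in skin replicates 1 to 4, and to 0 to 29.5 CPM in spleen libraries. Of these 14, 8 had a count in skin, and 5 were at 0 in all libraries, Dsp, Trp63, Dsg3 and Col17a1 among them. Of 17 markers of macrophages, monocytes and dendritic cells, 9 were at 0 in all libraries, Csf1r, Emr1 and Mrc1 among them, and their sum was 227 to 382 CPM in skin and 25.7 to 157 CPM in spleen. Most of that sum in skin was Fcer1g, at 175 to 354 CPM, beside 25.7 to 108 CPM in spleen libraries. The 5 markers of antigen presentation by class II overlapped, with sums of 68.9 to 308 CPM in skin and 21.7 to 429 CPM in spleen. The 8 mast cell and basophil markers had no count in any library. Markers of B cells and of erythroid cells stood higher in spleen. The 8 B cell markers were at 0 in all skin libraries and summed to 31.5 to 166 CPM in spleen, and the 5 erythroid markers summed to 0 to 0.424 CPM in skin and 111 to 228 CPM in spleen, with Hba-a1 called lower in skin (edgeR adjusted p = 0.0473). The 18 immediate early genes, which respond within minutes to a stimulus, summed to 12315 to 24468 CPM in skin. They summed to 1234 to 1799 CPM in spleen replicates 1 to 3 and to 10421 CPM in spleen replicate 4. The part of these marker genes' cells or states in the members' differences was not tested. In bulk libraries, a smaller number of cells of a type cannot be told apart from less RNA per cell.

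CPM values here are scaled by edgeR's TMM factors, means are given ± SD with n = 4 libraries per tissue, and log2 fold changes are skin over spleen with their SE. A gene is called when the Benjamini-Hochberg adjusted p of edgeR's quasi-likelihood test, over all genes tested, is under 0.05. The heat map gives the level of each member in each library.

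**Figure D1:**
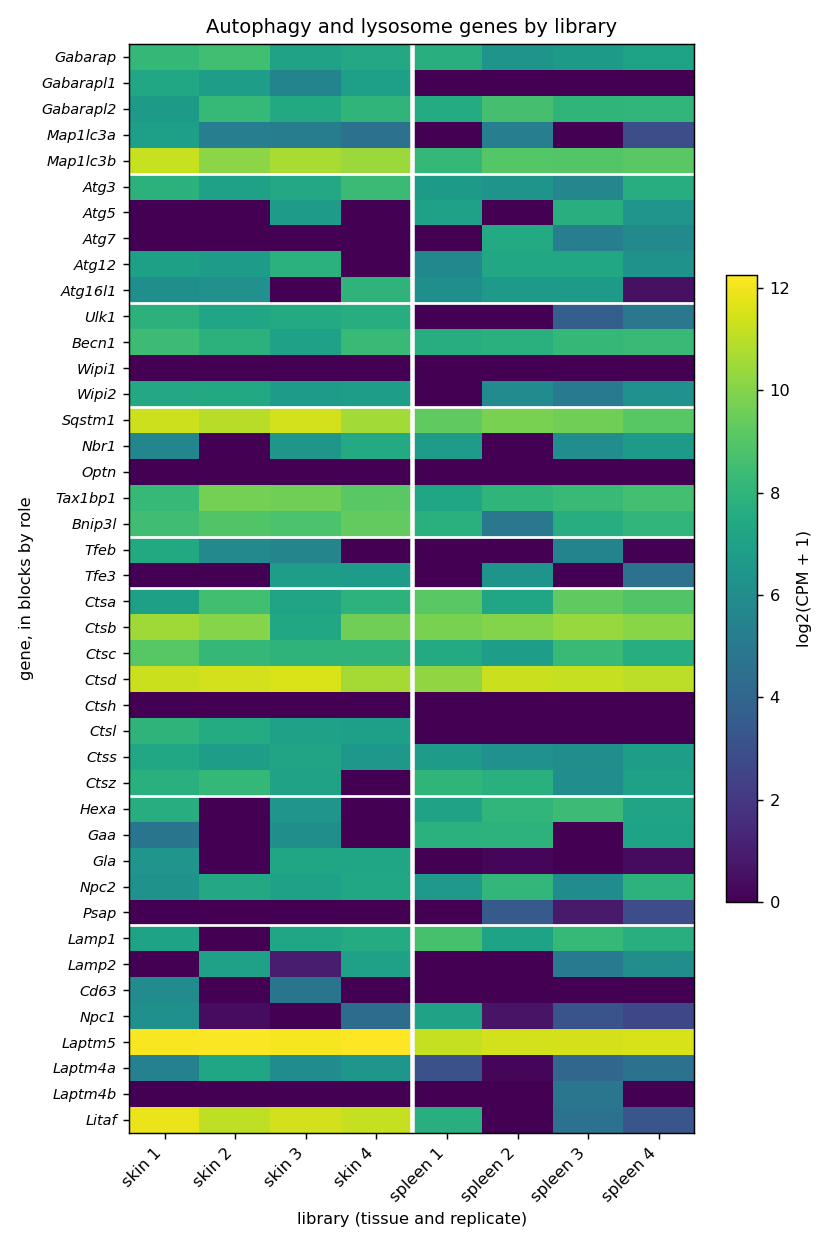
Level of the 42 members (rows, in blocks by role) in the 4 skin and 4 spleen libraries (columns), as log2(CPM + 1) by colour. Gabarapl1 and Ctsl are dark in all 4 spleen libraries, and Wipi1, Optn and Ctsh are dark throughout. Litaf is bright in all 4 skin libraries and lower in spleen, where replicate 1 (208 CPM) stands above the other spleen libraries.

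The skin libraries held more transcript of 5 members than the spleen libraries. These were the lysosomal membrane protein Laptm5, the cargo receptor Sqstm1 (p62), the ATG8 proteins Map1lc3b (LC3B) and Gabarapl1, and the protease Ctsl (cathepsin L). Sqstm1 and Map1lc3b were over 3 times as high in skin, Laptm5 less than 2 times, and Gabarapl1 and Ctsl had no count in spleen. Of the 42 members, 34 passed the filter on low counts, and of these 5 were higher and 0 lower in skin, with 29 not passing. Over all 6920 genes tested, 1.85% were called higher and 3.58% lower. At an unadjusted p under 0.05, edgeR placed 8 members higher and 0 lower, beside 5.1% and 7.33% of all genes tested. By other tools, voom gave 5 higher and 0 lower members, and DESeq2 gave 5 higher and 2 lower, beside 2.26% and 13.3% of the genes DESeq2 tested. The 5 higher members became 4 without skin replicate 4 or spleen replicate 4, 3 without skin replicates 1 or 2 or spleen replicates 1 or 2, and 2 without skin replicate 3 or spleen replicate 3. Gabarapl1 and Ctsl could pass the filter only through the skin libraries, where they are high. Among the 16 members with a count in all 8 libraries, 3 were called higher, 0 lower, where 4.92% of all such genes tested were higher and 2.1% lower. For 10 members the tissues' values did not overlap, all 10 with skin above spleen. Without overlap, 6.11% of all genes tested had skin above spleen and 13.4% had skin below. The log2 fold change was above 0 for 23 and below 0 for 11 of the 34 members, with a median of 0.74, beside -0.29 over all genes tested. The members, and the further pathway genes below, were chosen with earlier results of these data known. Setting their counts beside those of all genes is therefore a description and not a test of the set.

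Promoters are shown for 3 called members and, as examples of matches, for the uncalled Ctsd and Lamp1, which were picked because they hold several. Each is the 250 bases before the annotated start in RefSeq (build GRCm38.p6; the authors' counts were made on mm9), written 5′ to 3′ along the gene. Capitals mark matches, on either strand, to CACGTG (the E-box), TCACGTGA (the core of CLEAR, which contains an E-box) or TGACNNNGC (the core of the antioxidant response element). Those of Gabarapl1, Map1lc3b and Sqstm1, which were higher in skin, held none of the 3 motifs:
Gabarapl1, chr6:129532942-129533191, plus strand: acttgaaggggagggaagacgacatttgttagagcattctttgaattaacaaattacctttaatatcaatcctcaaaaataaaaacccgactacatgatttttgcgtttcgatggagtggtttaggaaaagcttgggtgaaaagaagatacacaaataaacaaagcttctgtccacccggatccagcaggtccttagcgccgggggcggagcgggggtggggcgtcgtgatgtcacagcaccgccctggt
Map1lc3b, chr8:121590188-121590437, plus strand: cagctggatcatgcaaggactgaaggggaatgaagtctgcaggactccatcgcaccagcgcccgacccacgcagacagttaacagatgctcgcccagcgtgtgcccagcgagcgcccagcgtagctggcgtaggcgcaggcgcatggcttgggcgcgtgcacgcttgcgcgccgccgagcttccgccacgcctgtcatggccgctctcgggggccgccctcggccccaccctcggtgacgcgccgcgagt
Sqstm1, chr11:50210821-50211070, minus strand: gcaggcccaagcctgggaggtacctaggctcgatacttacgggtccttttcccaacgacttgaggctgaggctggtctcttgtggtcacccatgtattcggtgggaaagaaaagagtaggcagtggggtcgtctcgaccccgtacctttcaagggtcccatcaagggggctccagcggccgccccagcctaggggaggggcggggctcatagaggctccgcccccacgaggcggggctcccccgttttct
Those of Ctsd and Lamp1, a lysosomal protease and the main lysosomal membrane glycoprotein, held several:
Ctsd, chr7:142387828-142388077, minus strand: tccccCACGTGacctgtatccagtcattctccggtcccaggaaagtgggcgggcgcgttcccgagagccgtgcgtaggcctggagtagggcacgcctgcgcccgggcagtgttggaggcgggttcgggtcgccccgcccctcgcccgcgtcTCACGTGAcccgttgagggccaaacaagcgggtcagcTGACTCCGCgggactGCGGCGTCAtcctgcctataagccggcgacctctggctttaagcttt
Lamp1, chr8:13158911-13159160, plus strand: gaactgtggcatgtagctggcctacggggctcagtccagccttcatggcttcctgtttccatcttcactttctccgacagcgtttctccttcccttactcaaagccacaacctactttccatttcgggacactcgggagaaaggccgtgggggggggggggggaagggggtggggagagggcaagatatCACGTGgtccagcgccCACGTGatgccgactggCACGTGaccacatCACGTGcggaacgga

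Ctsd had a CLEAR core 99 to 92 bases before its start, a further E-box 245 to 240 bases before it, and antioxidant cores at 62 to 54 and 47 to 39 bases. Lamp1 had 4 E-boxes between 61 and 10 bases before its start. RefSeq entries were matched for 33 of the 42 members, with 40 promoters in all. An E-box was found in 9 of these 40 promoters (22.5%) and in 6.02% of all 32851 promoters of the same length. The CLEAR core was found in 4 of the 40 (10%), those of Atg3, Ctsa, Ctsd and Gla, and in 0.785% of all promoters. The antioxidant core was found in 5 of the 40 (12.5%) and in 10.2% of all. None of the 3 motifs was found in 4 of the 5 promoters of called members and in 23 of the 35 promoters of members not called. The remaining called member, Ctsl, had an E-box 236 to 231 bases before its annotated start, but its entry ends like the end of an intron, so this stretch may not be a promoter. A match is a description of the letters, not of a factor bound there.

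**Figure D2:**
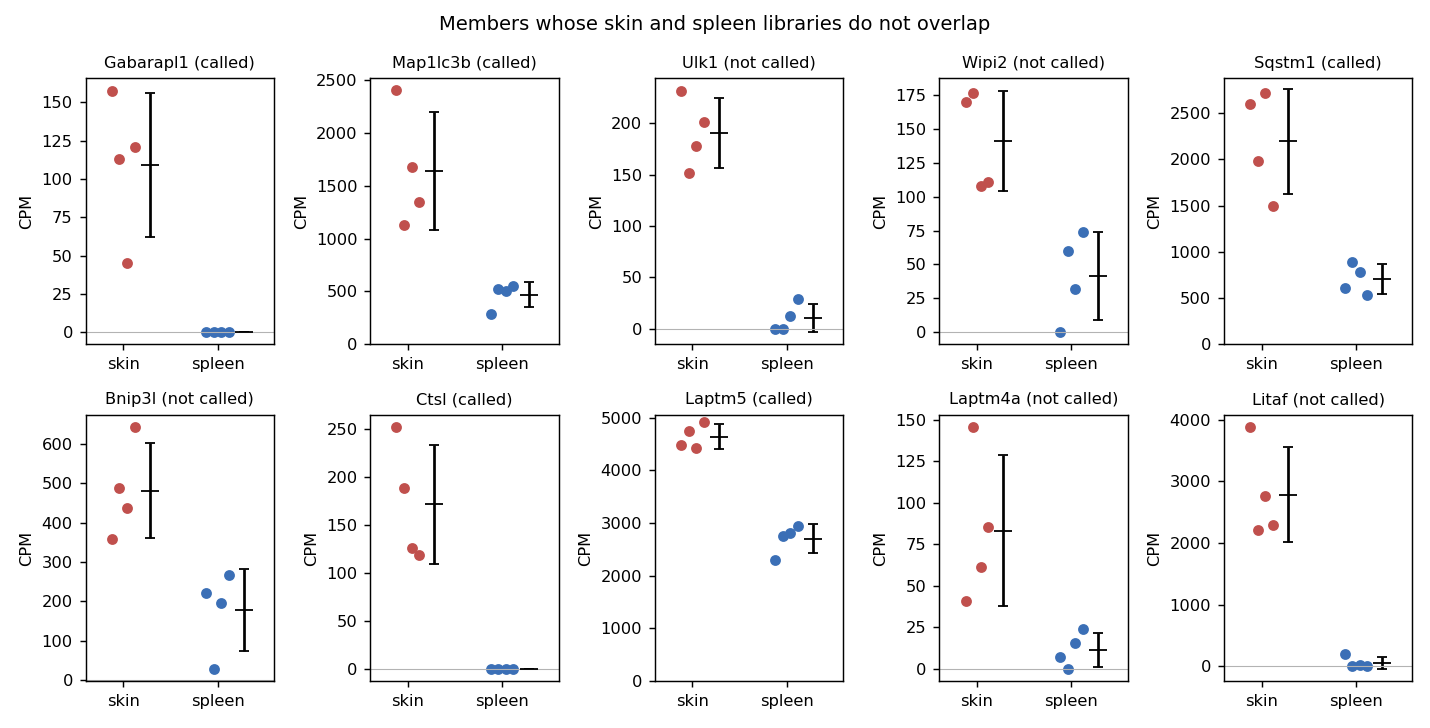
CPM of the 10 members whose 4 skin libraries (red points) all lie above their 4 spleen libraries (blue points), each panel with its own linear axis; the black mark and bar are the mean ± SD. Laptm5 is tight in both tissues, at 4643 ± 231 against 2703 ± 278 CPM, while Litaf spreads from 2208 to 3879 CPM in skin and lies at or below 208 CPM in spleen.

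Among the ATG8 proteins, Map1lc3b and Gabarapl1 rose in skin and the other 3 were not called. Map1lc3b, whose lipid-bound protein is the usual marker of autophagosomes, stood at 2409, 1129.7, 1673 and 1347 CPM in skin replicates 1 to 4. It stood at 291, 523, 506 and 551 CPM in spleen replicates 1 to 4. The lowest skin library was above the highest spleen library, and skin was 3.51-fold above spleen (Map1lc3b log2 fold change 1.81 ± 0.30, SE; edgeR adjusted p = 0.0196). The call was lost without skin replicate 3 (adjusted p = 0.052), spleen replicate 2 (0.0668) or spleen replicate 3 (0.0722). Its expected counts were not whole in 7 of the 8 libraries, as were those of Sqstm1 and Laptm5 in 8 of 8, so some reads were divided by estimate and the values are uncertain to that extent.

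Gabarapl1, a GABARAP paralog, stood at 158, 113, 45.1 and 121 CPM in the 4 skin libraries and had no count in any spleen library. Against a floor of 3 counts per library, averaged over the spleen libraries, it was at least 289.8-fold higher in skin (edgeR adjusted p = 0.0473). This bound covers counting error only. In each of the 8 fits without 1 library its adjusted p was between 0.0764 and 0.137, so the call needed all 8 libraries.

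Gabarap itself stood at 282, 378, 132 and 171 CPM in skin and at 204, 81.0, 103 and 137 CPM in spleen. These values overlapped, and the log2 fold change of 0.87 ± 0.53 (SE) was not called (edgeR adjusted p = 0.712). Gabarapl2 was the 1 ATG8 gene with a lower mean in skin, at 102, 301, 177 and 257 CPM against 187, 405, 255 and 269 CPM in spleen. The ranges overlapped and it was not called (log2 fold change -0.42 ± 0.44, SE; edgeR adjusted p = 0.998). Map1lc3a had a count in all skin libraries (23.4 to 119 CPM) and in spleen replicates 2 and 4 (37.5 and 6.69 CPM).

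Of the 5 genes of ATG8 and ATG12 conjugation, 4 were tested and 0 were called in either direction, with 0 at an unadjusted p under 0.05. By voom 0 were called, and by DESeq2 0 higher and 1 lower, Atg7, beside 2.26% and 13.3% of the genes DESeq2 tested. Atg3, the enzyme that hands ATG8 to the membrane lipid, had a count in all 8 libraries. It stood at 233, 129, 168 and 331 CPM in skin and at 103, 79.9, 50.7 and 198 CPM in spleen. The ranges overlapped through spleen replicate 4 (log2 fold change 0.99 ± 0.62, SE; edgeR adjusted p = 0.723). Atg12 averaged 116 ± 93.6 CPM in skin against 109 ± 53.8 CPM in spleen, and Atg16l1 97.4 ± 106 against 66.3 ± 46.2 CPM, each with 1 library or more at or near 0. Atg5 had a count in 1 skin library (replicate 3, 110.3 CPM) and in 3 spleen libraries (83.7 to 202 CPM). Atg7, the activating enzyme of both conjugation reactions, had no count in any skin library. In spleen it stood at 0, 177, 36.8 and 55.4 CPM in replicates 1 to 4, and it did not pass the filter.

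Ulk1 and Wipi2 separated the tissues among the initiation and nucleation genes but were not called. Ulk1, the kinase that starts autophagosome formation, stood at 232, 151, 178 and 201.5 CPM in skin. In spleen it stood at 0, 0, 11.97 and 28.5 CPM. No skin library came near a spleen library, yet the fitted log2 fold change of 4.23 had an SE of 2.08 (edgeR adjusted p = 0.509). Wipi2, which recruits ATG16L1, stood at 170.3, 177, 108 and 111 CPM in skin and at 0, 59.9, 31.5 and 73.7 CPM in spleen (log2 fold change 1.78 ± 1.6, SE; edgeR adjusted p = 0.956). Becn1 (Beclin 1) stood at 336, 231, 127 and 316 CPM in skin libraries and at 199, 219.9, 289 and 308 CPM in spleen libraries. The ranges overlapped throughout, with a log2 fold change of -0.01 ± 0.40 (SE) and an edgeR adjusted p of 0.999. Wipi1 had no count in any library. By counting error alone, a count of 0 allows a level of up to 0.292 to 0.454 CPM, depending on the library. Transcripts lost before sequencing are not covered by that limit.

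Of the 5 cargo receptors 1 was called, Sqstm1, and the log2 fold change was above 0 for all 4 that were tested. Over all 6920 genes tested, 1.85% were called higher and the log2 fold change was above 0 for 2920. Sqstm1, which binds ubiquitin and LC3 and is itself degraded with its cargo, stood at 2595, 1983, 2713 and 1494 CPM in skin. It stood at 612, 891, 777 and 535 CPM in spleen. All skin libraries were above all spleen libraries, and skin was 3.12-fold above spleen (Sqstm1 log2 fold change 1.64 ± 0.25, SE; edgeR adjusted p = 0.0125). Without spleen replicate 1, Sqstm1 was not called (adjusted p = 0.0511), and it was in each of the other 7 fits that left out a library.

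The mitophagy receptor Bnip3l (NIX) stood at 358, 488, 436 and 642 CPM in skin and at 221, 28.8, 196 and 267 CPM in spleen. The tissues did not overlap, and the gene was not called (log2 fold change 1.43 ± 0.59, SE; edgeR adjusted p = 0.338). Tax1bp1, a receptor that also restrains inflammatory signalling, stood at 295, 822, 785 and 556 CPM in skin and at 152, 256, 306 and 382 CPM in spleen. Skin replicate 1 fell within the spleen range, so the tissues overlapped, and Tax1bp1 was not called (1.17 ± 0.40 on the log2 scale, SE; edgeR adjusted p = 0.189). Nbr1 averaged 79.3 ± 75.6 CPM in skin against 67.8 ± 49.2 CPM in spleen, with 1 library at 0 in each. Optn (optineurin) had no count in any library.

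The transcription factors were measured only in some libraries. Tfeb had a count in skin replicates 1 to 3 (173, 54.2 and 46.9 CPM) and in spleen replicate 3 (44.6 CPM). Tfe3 had a count in skin replicates 3 and 4 (113 and 104 CPM) and in spleen replicates 2 and 4 (81.3 and 23.0 CPM). With SEs of 3.02 and 2.97 on the log2 scale, neither was called, by edgeR, voom or DESeq2, and a difference of several-fold was not detectable.

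**Figure D3:**
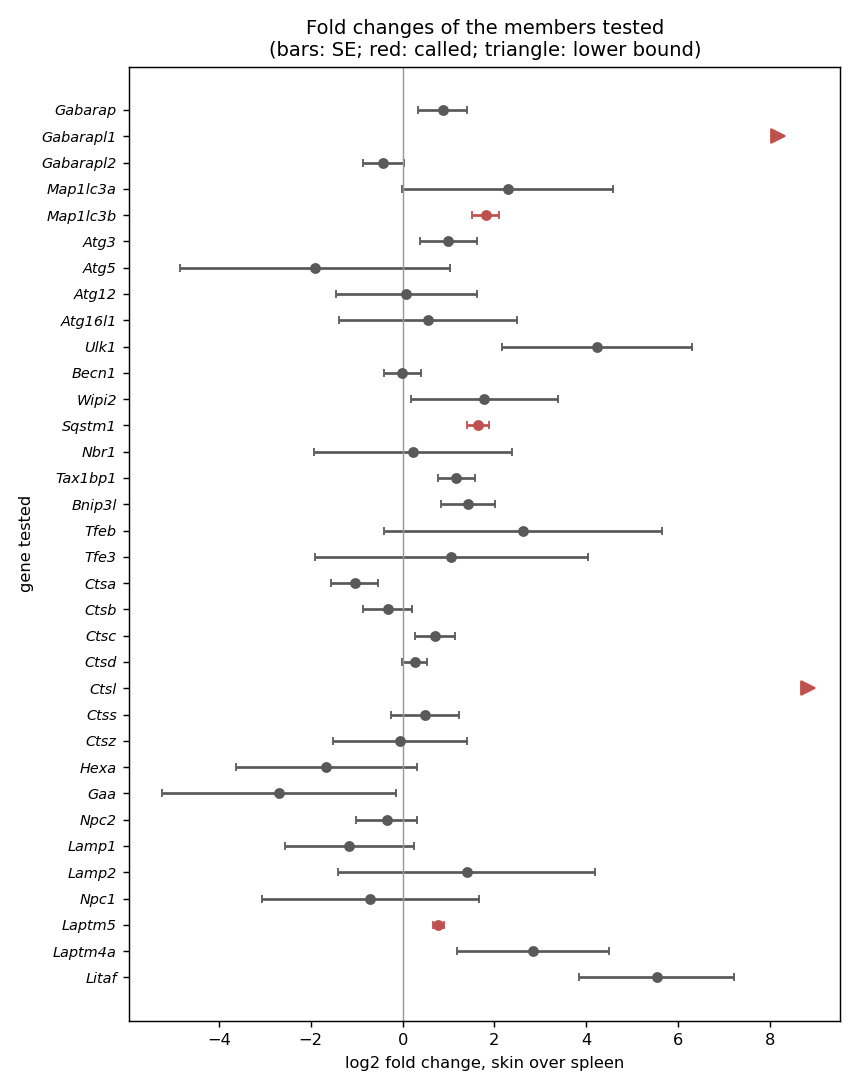
Log2 fold change, skin over spleen, of the 34 members tested, with bars of 1 SE; red marks the 5 called members, and triangles are lower bounds for Ctsl and Gabarapl1, which had no count in spleen. Laptm5, Sqstm1 and Map1lc3b have narrow bars to the right of 0, and the bars of Atg5, Tfeb and Tfe3 are the widest.

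Among the cathepsins, Ctsl rose in skin and none of the other 6 tested was called. Ctsl, a cysteine protease of lysosomes, stood at 252, 189, 127 and 119 CPM in the skin libraries and had no count in spleen. It was at least 456-fold higher against the floor of 3 counts per spleen library, a bound that covers counting error only (edgeR adjusted p = 0.0245). The call was lost without skin replicates 1, 2 or 3 or spleen replicate 3, with adjusted p values from 0.0539 to 0.074. The 14 keratinocyte markers summed to 892, 334, 1032 and 273 CPM in skin replicates 1 to 4. Of these markers, Perp and Sfn stood at 76.0 to 198 and 35.4 to 165 CPM in skin, and Perp was called higher in skin (edgeR adjusted p = 0.0328). Another 6 of the 14 had no count in skin, and Krt5, Krt14 and Krt15 were each at 0 in 1 skin library or more. Keratinocytes are known to express Ctsl, and their part in its level was not tested.

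Ctsd, the main aspartic protease of lysosomes, stood at 2464, 2721, 3063 and 1541 CPM in skin and at 1202, 2472, 2324 and 2127 CPM in spleen. The ranges overlapped widely, and Ctsd was not called (0.27 ± 0.27 on the log2 scale, SE; edgeR adjusted p = 0.996). Ctsb stood at 1455, 1049.9, 156 and 783 CPM in skin and at 894, 1004, 1345 and 1074 CPM in spleen, with skin replicate 3 far below the rest (log2 fold change -0.33 ± 0.53, SE). Ctsc, which activates granzymes, stood at 532, 288, 248 and 252 CPM in skin and at 181, 112, 320.4 and 197 CPM in spleen. It was highest in skin replicate 1 and was not called (edgeR adjusted p = 0.733). Ctsa, a protective partner of lysosomal glycosidases, stood at 124, 373, 145 and 246 CPM in skin libraries and at 566, 154, 622 and 489 CPM in spleen libraries. Spleen replicate 2 fell within the skin range, and Ctsa was not called (log2 fold change -1.04 ± 0.52, SE; edgeR adjusted p = 0.516). Ctss averaged 127 ± 30.3 CPM in skin against 90.5 ± 24.6 CPM in spleen, and Ctsz 161 ± 125 against 168 ± 88.2 CPM. Ctsh had no count in any library, and Ctss and Ctsh are both abundant in antigen-presenting cells.

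The other lumenal proteins had 0 members called by edgeR or voom, 0 at an unadjusted p under 0.05, and 1 higher (Gla) and 1 lower (Psap) by DESeq2. Of all genes it tested, DESeq2 called 2.26% higher and 13.3% lower. The log2 fold change of all 3 tested by edgeR was below 0, as it was for 4000 of all 6920 genes tested. Hexa, a subunit of the enzyme that degrades gangliosides, stood at 197, 0, 82.1 and 0 CPM in skin and at 131, 268, 340.3 and 145 CPM in spleen (log2 fold change -1.66 ± 1.97, SE; edgeR adjusted p = 0.998). Gaa, the acid alpha-glucosidase, averaged 23.6 ± 32.0 CPM in skin against 152 ± 111 CPM in spleen, and the sterol carrier Npc2 135 ± 43.3 against 172 ± 107 CPM. Gla, the alpha-galactosidase that trims glycolipids, stood at 84.2, 0, 149 and 153 CPM in skin and at no more than 0.297 CPM in any spleen library, and it did not pass the filter. Psap, which encodes the saposins that help load lipids onto CD1d, had no count in skin and 0, 10.2, 0.855 and 6.39 CPM in spleen.

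Of the 8 lysosomal membrane proteins 6 were tested, 1 was called, Laptm5, and 3 did not overlap between the tissues, skin above, where 1.85% and 6.11% of all genes tested were called higher or lay above without overlap. Laptm5, a lysosomal protein of blood cells known to send the T cell receptor to degradation, stood at 4477, 4746.5, 4429 and 4919 CPM in skin. It stood at 2305, 2746, 2812 and 2948 CPM in spleen. The tissues did not overlap, and the 1.72-fold difference was called (log2 fold change 0.78 ± 0.11, SE; edgeR adjusted p = 0.00834). Laptm5 was called again in all 8 fits without 1 library (adjusted p from 0.0171 to 0.0449), and none of the other called members was. DESeq2 did not call it (adjusted p = 0.648), nor Sqstm1 (0.162) nor Map1lc3b (0.101).

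Litaf, a membrane protein of late endosomes and lysosomes named for its induction by lipopolysaccharide, stood at 3879, 2208, 2757 and 2293 CPM in skin. In spleen it stood at 208, 0, 23.5 and 8.77 CPM. Each skin library was more than 10 times any spleen library, and the difference was not called (5.53 ± 1.69 on the log2 scale, SE; edgeR adjusted p = 0.122). Over the 8 fits without 1 library the adjusted p ranged from 0.0877, without spleen replicate 1, to 0.288, without spleen replicate 3. DESeq2 called it higher in skin (adjusted p = 0.0173).

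Laptm4a, a broadly expressed relative of Laptm5, stood at 41.0, 146, 61.4 and 85.3 CPM in skin and at 7.31, 0.114, 15.4 and 23.9 CPM in spleen. The tissues did not overlap, and the gene was not called (log2 fold change 2.83 ± 1.66, SE; edgeR adjusted p = 0.673). Lamp1 stood at 138, 0, 148 and 187 CPM in skin and at 415, 136, 300.4 and 205 CPM in spleen, with the fold change below 0 (log2 -1.16 ± 1.41, SE). Lamp2 averaged 64.4 ± 73.9 CPM in skin against 24.5 ± 31.6 CPM in spleen, and the cholesterol transporter Npc1 22.3 ± 32.9 against 36.3 ± 63.3 CPM. Cd63, a tetraspanin of lysosomes and granules, had a count in skin replicates 1 and 3 only (58.7 and 26.3 CPM). Laptm4b had a count in spleen replicate 3 only (27.4 CPM).

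Summed over all 42 members, the level was 17084 to 21962 CPM in skin and 9056 to 11491 CPM in spleen. Without Litaf and the 5 called members the sum was 6791 to 8228 CPM in skin and 5641 to 7373 CPM in spleen. These ranges overlapped, and the 6 genes left out were picked for their difference.

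**Figure D4:**
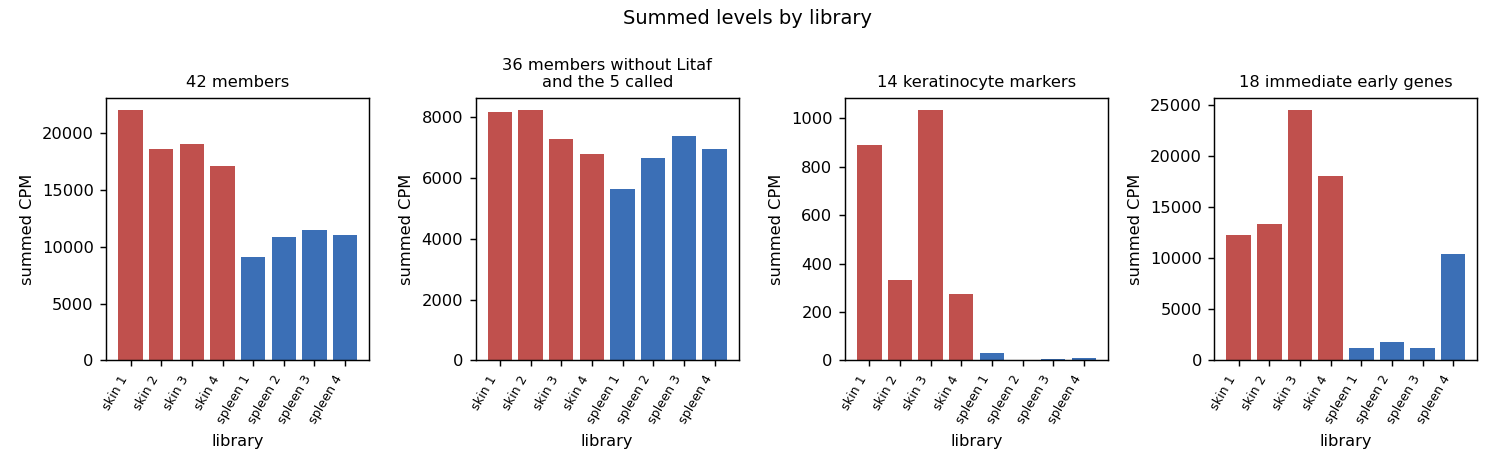
Summed CPM in each library (red, skin; blue, spleen; linear axes from 0) of the 42 members, of the 36 members without Litaf and the 5 called, of 14 keratinocyte markers and of 18 immediate early genes. The sum of the 36 members overlaps between the tissues, the keratinocyte sum is highest in skin replicates 1 and 3, and spleen replicate 4 stands above the other spleen libraries in immediate early genes.

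Outside the 42 members, 127 further genes of the pathway were listed and found in the table, 9 of them by an older symbol. Of these, 93 passed the filter, 1 was higher in skin, 1 was lower and 91 did not pass the test. Over all genes tested, edgeR called 1.85% higher and 3.58% lower. The median log2 fold change of the 93 was -0.18. Skin lay above spleen without overlap for 5 of the 93, and below for 9, where 6.11% and 13.4% of all genes tested did. Of 23 tested genes of autophagosome formation, edgeR called 1 higher and 0 lower. DESeq2 called 1 higher and 3 lower of that list, beside 2.26% and 13.3% of the genes it tested, and voom 1 and 0. The edgeR call was Atg101, a subunit of the ULK1 complex. It stood at 729, 737, 449 and 261 CPM in skin and at 126, 68.8, 85.8 and 151 CPM in spleen (log2 fold change 2.34 ± 0.44, SE; edgeR adjusted p = 0.0352). All skin libraries were above spleen, and of the 8 leave-one-out fits only the one omitting skin replicate 4 called Atg101 again.

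Of the 14 tested genes that control autophagy through mTORC1, AMPK and the TFEB family, 0 were called by edgeR in either direction, with 2 higher and 0 lower at an unadjusted p under 0.05. At that unadjusted p, 5.1% of all genes tested were higher and 7.33% lower. DESeq2 called 0 higher and 1 lower of that list, beside 2.26% and 13.3% of the genes it tested. Voom called 1 higher, Rheb (voom adjusted p = 0.0421), and 1 lower, Prkag1 (0.0481). Rheb, the GTPase that activates mTORC1, stood at 350.1, 346, 341 and 393 CPM in skin and at 89.3, 4.67, 97.5 and 95.7 CPM in spleen. Skin was above spleen throughout, with spleen replicate 2 far below the other spleen libraries (log2 fold change 2.32 ± 0.78, SE; edgeR adjusted p = 0.177). Prkag1, a subunit of AMPK, stood at 156, 0, 0 and 0 CPM in skin and at 379, 246, 161 and 191 CPM in spleen. It was not called with all 8 libraries (edgeR adjusted p = 0.962) and was called lower without skin replicate 1 (adjusted p = 0.00858).

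The proton pump that acidifies lysosomes, the V-ATPase, had 0 called subunits among 15 tested, with 0 higher and 1 lower at an unadjusted p under 0.05 by edgeR and 0 called by DESeq2 or voom. Over all genes tested, 5.1% were higher and 7.33% lower at that unadjusted p. The subunits' log2 fold changes were above 0 for 8 and below 0 for 7, with a median of 0.20. Of the 30 other lysosomal enzymes tested, edgeR called 0 higher and 1 lower in skin, beside 1.85% and 3.58% of all genes tested. DESeq2 called 0 higher and 4 lower of that list, beside 2.26% and 13.3% of the genes it tested, and voom 0 and 2. The edgeR call was Glb1, the beta-galactosidase. Glb1 had no count in skin and stood at 215, 40.5, 78.5 and 87.3 CPM in spleen, at least 272-fold lower in skin against the floor of 3 counts per skin library (edgeR adjusted p = 0.0473). Without spleen replicate 1 the bound, which covers counting error only, was 178-fold. Glb1 could pass the filter only through the spleen libraries, where it is high, and its call was lost in each of the 8 fits without a library. The log2 fold change was below 0 for 19 of the 30 enzymes (median -0.67), as it was for 4000 of all 6920 genes tested, and 7 lay below spleen without overlap, where 13.4% of all genes did. Ctsw, a cathepsin of cytotoxic lymphocytes, stood at 1343, 1585, 1267 and 1630.5 CPM in skin and at 560, 865, 1218 and 883 CPM in spleen. The tissues did not overlap, and it was not called (log2 fold change 0.72 ± 0.24, SE; edgeR adjusted p = 0.155).

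Of 11 tested genes of the lysosome membrane and of transport to it, 0 were called by edgeR, with 1 higher and 0 lower at an unadjusted p under 0.05, and by DESeq2 and voom each 0 higher and 1 lower. At that unadjusted p, edgeR placed 5.1% of all genes tested higher and 7.33% lower. DESeq2 called 2.26% higher and 13.3% lower of the genes it tested. Cstb, the cystatin that inhibits cysteine cathepsins, stood at 171, 149, 248 and 428 CPM in skin and at 77.0, 47.9, 102 and 65.7 CPM in spleen. Its tissues did not overlap (log2 fold change 1.77 ± 0.58, SE; edgeR adjusted p = 0.154). Tmem55b, a lysosomal membrane phosphatase, had a count in 1 skin library (replicate 3, 57.8 CPM) and stood at 59.8 to 99.3 CPM in spleen. It was not called by edgeR and was the 1 gene that voom called lower (adjusted p = 0.0453).

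**Figure D5:**
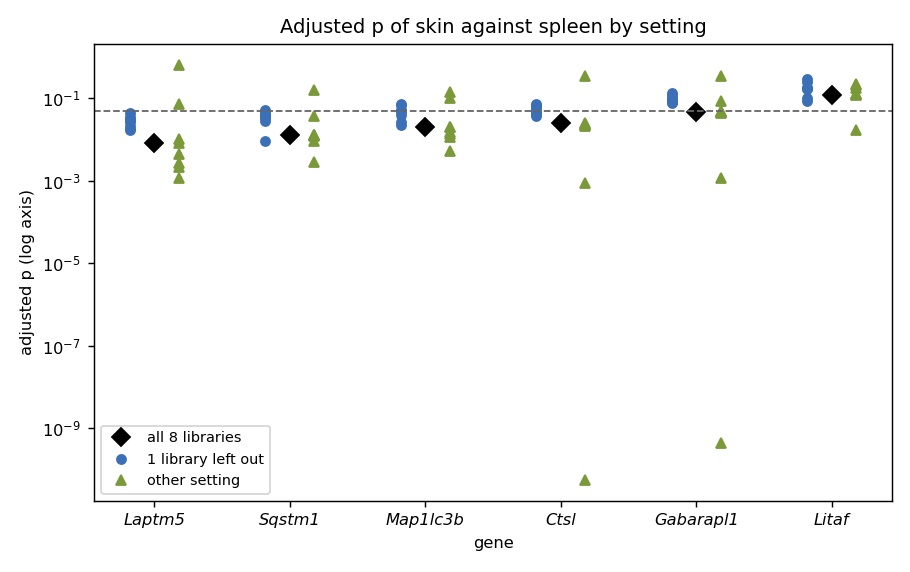
Adjusted p (log axis) of the 5 called members and Litaf with all 8 libraries (black diamonds), with 1 library left out (blue points) and under the 8 other settings (green triangles); the dashed line is 0.05. All blue points of Laptm5 lie below the line and all those of Gabarapl1 and Litaf lie above it.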

How the data were processed

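Expected counts per gene were deposited by the authors, estimated with RSEM per the submitters' processing notes, which also name FastQC, DESeq2 1.16.1 and mm9 without role or order. Libraries were made with an ultra-low-input full-length cDNA kit that does not mark strand and read as 75 bp pairs, per the labels' protocols. Aligner, annotation release and filters: not given in the sources used here. Columns were matched to libraries by the labels' descriptions, and 0 went unused. Between 12.3% and 19.4% of a library's values were not whole (tolerance 0.005), and all were rounded. edgeR 4.0.16 (R 4.3.3) was run on genes kept by filterByExpr (6920 of 22549), with TMM scaling, a robust quasi-likelihood fit with tissue as the only term, and Benjamini-Hochberg adjustment over all tested genes. The SE is the log2 fold change divided by the square root of F. Alternatives were RLE and upper-quartile scaling, no filter, a stricter filter (at least 5 CPM in 4 libraries), the DESeq2 1.42.0 Wald test, voom in limma 3.58.1 with quality weights, rounding down, a replicate block and each library left out. A floor of 3 counts is 0.292 to 0.454 CPM. Without molecular identifiers, such floors speak to counting error alone. No pair of libraries agreed within sampling noise (chi-square per degree of freedom of at least 112). The members and lists were chosen with earlier results of these data known. Values in every library are given for members that were called, did not overlap between tissues or exceeded 200 CPM in a tissue's mean. Of the further pathway genes, up to 3 called in each direction per list, or otherwise 1 without overlap, were named. The fit was also run on simulated counts, at dispersions (spread beyond counting error) below the common dispersion of 2.94 estimated here. Its outcome there does not show how the test performs on libraries this variable. Gene coordinates in the authors' build are not used here; promoters are RefSeq's.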

Additional observations from a re-analysis of the deposited data

Results flagged for a closer look

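In 28 genes given with values, the 4 libraries of each tissue were checked for 1 library far from the other 3 by Dixon's ratio at the 95% level, which chance exceeds in about 5% of groups. Of 56 groups, 6 stood out. Ctsc stood at 532 CPM in skin replicate 1 while the remaining skin libraries lay between 248 and 288 CPM. Litaf stood at 208 CPM in spleen replicate 1 and at 0 to 23.5 CPM in the other spleen libraries. Rheb stood at 4.67 CPM in spleen replicate 2, with the others at 89.3 to 97.5 CPM, and at 393 CPM in skin replicate 4, with the others at 341 to 350.1 CPM. Prkag1 had a count in skin replicate 1 alone (156 CPM) and Tmem55b in skin replicate 3 alone (57.8 CPM).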

How the results depend on the processing

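The 5 members higher in skin were 5 again under RLE and upper-quartile scaling, the stricter filter, voom and rounding down, and 4 without a filter, where Gabarapl1 was lost. Leaving out 1 library gave 2 to 4 higher members and 0 lower. DESeq2 also gave 5, of which Gabarapl1 and Ctsl are shared with edgeR and Litaf, Gla and Cd63 are not, and it gave 2 lower members, Atg7 and Psap. Gla, Cd63, Atg7 and Psap did not pass edgeR's filter, and edgeR without a filter called none of these 4 (adjusted p from 0.193 to 0.217). The cause of these differences was not tested. The median log2 fold change of all genes tested, -0.29, was -2.06 with voom and -0.99 with the replicate block, beside 0.48 and 0.75 for the members. Over all genes, edgeR called 128 higher and 248 lower. These counts became 201 and 1179 with DESeq2 and 209 and 519 with voom, the lower count became 48 without a filter, and leaving out 1 library gave 47 to 102 and 17 to 111. The further pathway genes, 1 higher and 1 lower, became 2 and 4 with voom, 9 lower with DESeq2, 0 lower without a filter, and 0 to 1 in each direction without 1 library. The labels do not say whether replicate numbers pair the libraries. Same-numbered deviations correlated at -0.00031 to 0.0138 across genes, and differently numbered ones at -0.0281 to 0.0426. Correlations this small, in libraries this variable, cannot show whether libraries were paired. The replicate block gave 36 higher and 14 lower genes, 1 higher member (Sqstm1) and 0 further pathway genes in each direction. For single genes given with values, 0 fold changes that were called reversed sign. Depth limits what can be said of members with several libraries at 0, such as Tfeb, Tfe3 and Atg5, whose SE is about 3 on the log2 scale.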
